A study of Mus musculus with 8 samples.

Results

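The cyclins and the cyclin-dependent kinases (CDKs) that drive the cell cycle were examined in J774A.1 cells, a mouse macrophage line that divides in culture. The 10 genes are the D-type cyclins Ccnd1, Ccnd2 and Ccnd3, the E-type cyclins Ccne1 and Ccne2, the A-type cyclin Ccna2, the B-type cyclins Ccnb1 and Ccnb2, and the kinases Cdk1 and Cdk2. They were chosen by gene symbol, as the families that act in G1, S and G2/M, with earlier results of these data known. They are 10 of the 55487 genes listed. All 10 had an average of 1 TPM or more over the libraries, and so were among the 11796 genes tested. TPM, a unit of transcript abundance, divides the reads of a gene by its length and scales each library to a common total, so that levels can be compared between genes.

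The study asked how ursodeoxycholic acid (UDCA), a bile acid, changes the transcriptome of macrophages stimulated with lipopolysaccharide (LPS), a component of the outer membrane of Gram-negative bacteria. All cultures received LPS, at 1 μg/mL, for 24 h. The 4 libraries of the LPS group had no other agent, and the 4 libraries of the LPS + UDCA group also received 1 mM UDCA. The groups are those of the sample labels and the doses are from the study's methods, which in one place word the RNA sequencing instead as UDCA given alone or with LPS. No untreated culture and no culture with UDCA alone was analysed here, so every difference is between LPS + UDCA and LPS. A single cell line was used, and the labels do not say whether the 4 libraries of a group came from separate cultures, so p-values measure the spread between these libraries only. The depth of the libraries is unknown, because TPM keeps no count of reads.

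CDKs are kinases that are inactive without a cyclin. In the usual account, D-type cyclins are made in response to growth signals and activate CDK4 and CDK6, which begin to inactivate the retinoblastoma protein, and E-type cyclins then activate CDK2 at the entry into S phase. Cyclin A2 works with CDK2 in S phase and with CDK1 later, and B-type cyclins with CDK1 drive mitosis. Many genes of S phase are transcribed through E2F sites. Genes of G2 and mitosis often carry several CCAAT boxes, which bind NF-Y, together with a cell cycle genes homology region (CHR), which the MuvB complex binds. Cyclin D1 differs from these in that its gene is known for answering mitogens, through factors such as AP-1, more than for following the position in the cycle.

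The promoters of Ccnb2, Ccnb1, Cdk1 and Cdk2 are shown because they carry these motifs in different numbers. Each run is the 250 bases before a RefSeq start on the minus strand of GRCm38.p6, written 5′ to 3′ in the direction of transcription. Capitals mark CCAAT boxes (CCAAT), CHR letters (TTTGAA or TTCGAA) and E2F letters (TTCCCGC and its variants TTGGCGC, also TTGCCGC, and also TTCGCGC), each searched on both strands, so that a CCAAT box can also read ATTGG.
Ccnb2 (chr9:70421555-70421804): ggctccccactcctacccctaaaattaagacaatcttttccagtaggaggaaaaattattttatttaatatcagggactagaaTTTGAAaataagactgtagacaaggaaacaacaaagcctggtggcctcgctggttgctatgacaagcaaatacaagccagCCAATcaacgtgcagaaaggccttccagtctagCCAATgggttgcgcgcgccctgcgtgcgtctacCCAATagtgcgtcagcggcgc
Ccnb1 (chr13:100786487-100786736): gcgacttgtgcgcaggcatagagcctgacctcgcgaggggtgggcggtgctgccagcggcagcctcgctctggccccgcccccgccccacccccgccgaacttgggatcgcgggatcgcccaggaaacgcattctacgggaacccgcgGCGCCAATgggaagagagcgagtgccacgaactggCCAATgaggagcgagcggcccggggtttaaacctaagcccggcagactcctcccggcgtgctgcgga
Cdk1 (chr10:69352913-69353162): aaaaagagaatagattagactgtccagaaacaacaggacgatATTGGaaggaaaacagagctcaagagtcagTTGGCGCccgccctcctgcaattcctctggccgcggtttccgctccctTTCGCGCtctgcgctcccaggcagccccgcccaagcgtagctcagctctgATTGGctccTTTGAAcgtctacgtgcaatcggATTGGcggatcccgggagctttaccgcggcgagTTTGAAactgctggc
Cdk2 (chr10:128705052-128705301): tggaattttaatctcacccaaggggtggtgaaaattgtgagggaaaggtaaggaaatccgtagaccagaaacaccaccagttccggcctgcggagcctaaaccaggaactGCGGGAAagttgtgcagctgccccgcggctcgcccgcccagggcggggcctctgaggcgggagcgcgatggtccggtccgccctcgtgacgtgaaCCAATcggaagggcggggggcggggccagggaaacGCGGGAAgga
The Ccnb2 window held 3 CCAAT boxes and 1 CHR match. The Cdk1 window held 3 CCAAT boxes, 2 CHR matches and 2 E2F matches. In the Ccnb1 window there were 2 CCAAT boxes, and 1 of them overlapped an E2F match, which makes the longer run of capitals. The Cdk2 window held 1 CCAAT box and 2 E2F matches. GENCODE starts Ccnb1 84 bases and Cdk1 26 bases upstream of the RefSeq start used here.

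RefSeq promoters were used for 6 of the 10 genes, these 4, Ccne1 and Ccnd3, and Ccnd3 had 2 windows. Those of Ccnd1, Ccnd2, Ccne2 and Ccna2 were not analysed here. None of the 3 motifs marked above was found in the Ccne1 window or in the first Ccnd3 window, while the second held 1 CCAAT box. Of 32851 mouse promoter windows of the same length, 33.8% held a CCAAT box, 10.1% held 2 or more, 17.1% a CHR match and 7.89% an E2F match. The AP-1 letters TGANTCA occurred in 6.75% of all windows and in 0 of the 7 windows searched, none of which is that of Ccnd1. Kappa B letters (GGG and CC with any 5 bases between) occurred in 45.8% of all windows and in 6 of the 7. Such matches describe letters and are not evidence of binding.

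UDCA was accompanied by lower mRNA of all 10 genes. Every LPS + UDCA library was below every LPS library for each of them, which was the case for 29.9% of the genes tested. In the fit over all genes (limma, Benjamini-Hochberg adjustment), 10 of the 10 were lower at FDR below 0.05, against 32.3% of the genes tested. The threshold of a fold change of at least 2 was passed by 9, against 8.44% of the genes tested, and Ccnd2 was the exception. None was called higher, against 8.71% of the genes tested. The median log2 fold change was −2.24 over the 10 genes and 0.08 over all genes tested. RNA from whole cultures was measured, so fewer cells in a given phase and less mRNA per cell cannot be told apart. Each gene alone gave p = 0.029 in an exact two-sided permutation test, the smallest p that 4 against 4 libraries allow.

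**Figure D1:**
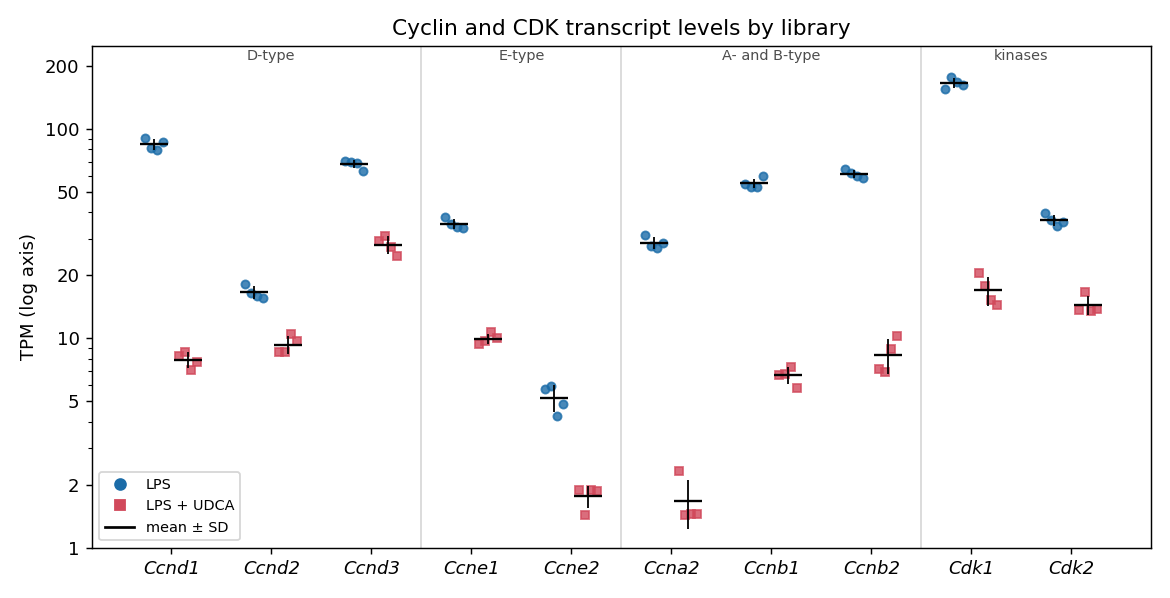
TPM (log axis) of the 10 cyclin and CDK genes in the 4 LPS libraries and the 4 LPS + UDCA libraries, 1 point per library, with a bar at each group mean. The groups did not overlap for any gene, and Cdk1 was the highest gene with LPS, between 156 and 177 TPM.

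Among the D-type cyclins, which start the passage through G1, Ccnd1 was the gene that fell furthest. Ccnd1 was at 91.2, 81.2, 79.6 and 87.3 TPM in the LPS libraries and at 8.25, 8.66, 7.06 and 7.71 TPM with UDCA. The spread within each group was small beside the gap between them, with means of 84.8 ± 5.38 and 7.92 ± 0.693 TPM (SD, n = 4) and a ratio of 10.7. Its log2 fold change was −3.27 ± 0.07 (SE, limma adjusted p = 1.6e-09), which placed Ccnd1 at rank 23 from the lowest of the 11796 genes tested.

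Ccnd3, the D-type cyclin best known from blood cells, was at 70.6, 70.1, 69.1 and 63.4 TPM with LPS and at 29.4, 30.9, 27.3 and 24.8 TPM with UDCA. It was the highest cyclin in the presence of UDCA, with means of 68.3 ± 3.33 and 28.1 ± 2.65 TPM and a log2 fold change of −1.26 ± 0.07 (limma adjusted p = 4.1e-07). Ccnd2 was at 18.3, 16.5, 15.9 and 15.7 TPM with LPS and at 8.58, 8.57, 10.5 and 9.68 TPM with UDCA. The groups of Ccnd2 were apart but by less than in any other of the 10 genes, with means of 16.6 ± 1.2 and 9.34 ± 0.949 TPM, a ratio of 1.78 and a log2 fold change of −0.77 ± 0.08 (limma adjusted p = 2.4e-05).

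The make-up of the D-type cyclin mRNA changed with these unequal falls. With LPS, Ccnd1 supplied 49.98% ± 1.98 and Ccnd3 40.3% ± 1.92 of the summed TPM of the 3 genes. With UDCA, Ccnd1 supplied 17.5% ± 1.18, Ccnd3 61.8% ± 2.52 and Ccnd2 20.7% ± 2.92, the last up from 9.77% ± 0.315. The shares of each gene did not overlap between the groups. The summed level fell from 170 ± 7.05 to 45.3 ± 2.49 TPM.

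The E-type cyclins, the partners of CDK2 at the start of S phase, were nearly all Ccne1. Ccne1 was at 38.1, 35.3, 34.0 and 33.6 TPM with LPS and at 9.37, 9.73, 10.7 and 10.02 TPM with UDCA. The 2 groups were tight and far apart, with means of 35.2 ± 2.02 and 9.96 ± 0.572 TPM, and the log2 fold change was −1.73 ± 0.06 (limma adjusted p = 2.7e-08). Ccne2 was at 5.76, 5.91, 4.27 and 4.88 TPM with LPS and at 1.88, 1.44, 1.88 and 1.86 TPM with UDCA. It was the lowest of the 10 genes with LPS, and its log2 fold change was −1.16 ± 0.12 (limma adjusted p = 1.7e-05). Adding 1 to each TPM before the logarithm understates a fold at such low levels. With 0.01 added instead, the log2 fold change was −1.55 for Ccne2 and −1.82 for Ccne1. The difference, Ccne1 minus Ccne2, was then −0.27 and did not pass (exact permutation test, adjusted p = 0.1). With 1 added it was −0.56 and passed (exact permutation test, adjusted p = 0.035). Ccne2 made up 12.8% ± 1.31 of E-type mRNA with LPS and 15.0% ± 1.61 with UDCA, and these shares overlapped between the groups.

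Ccna2, which acts from S phase to early mitosis, had the largest fall of the 10. Ccna2 was at 31.2, 27.6, 27.0 and 28.5 TPM with LPS and at 2.32, 1.43, 1.45 and 1.45 TPM with UDCA. One UDCA library lay above the other 3, and all 4 were far below the LPS libraries. The means were 28.6 ± 1.88 and 1.66 ± 0.438 TPM, a ratio of 17.2, and the log2 fold change was −3.49 ± 0.11 (limma adjusted p = 1.6e-08, rank 14 of 11796). Because 1 is added to each TPM before the logarithm, this fold is understated at low levels, and with 0.01 added instead the log2 fold change of Ccna2 was −4.13.

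Ccnb1 and Ccnb2 encode the cyclins of the mitotic kinase. Ccnb1 was at 54.5, 53.2, 53.2 and 59.5 TPM with LPS and at 6.69, 6.77, 7.33 and 5.82 TPM with UDCA. Ccnb2 was at 64.7, 62.0, 59.6 and 58.4 TPM with LPS and at 7.14, 6.94, 8.88 and 10.3 TPM with UDCA. Both genes were far lower in every UDCA library than in any LPS library. The mean of Ccnb1 went from 55.1 ± 3.0 to 6.65 ± 0.624 TPM, with a log2 fold change of −2.88 ± 0.07 (limma adjusted p = 3.0e-09). The mean of Ccnb2 went from 61.2 ± 2.8 to 8.32 ± 1.58 TPM, with a log2 fold change of −2.75 ± 0.11 (limma adjusted p = 5.4e-08).

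The 2 kinases fell by different amounts. Cdk1, the kinase of mitosis and the most abundant of the 10 mRNAs with LPS, was at 156, 177, 168 and 163 TPM with LPS and at 20.5, 17.8, 15.2 and 14.4 TPM with UDCA. Its means were 166 ± 8.7 and 16.97 ± 2.76 TPM, a ratio of 9.79, and its log2 fold change was −3.23 ± 0.10 (limma adjusted p = 1.3e-08). Cdk2, the partner of cyclins E and A, was at 39.7, 37.0, 34.4 and 36.0 TPM with LPS and at 13.7, 16.6, 13.5 and 13.9 TPM with UDCA. The fall of Cdk2 was smaller, from 36.8 ± 2.2 to 14.4 ± 1.47 TPM, with a log2 fold change of −1.30 ± 0.08 (limma adjusted p = 5.0e-07). Of the summed mRNA of both kinases, Cdk1 held 81.9% ± 1.47 with LPS and 53.9% ± 4.13 with UDCA.

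**Figure D2:**
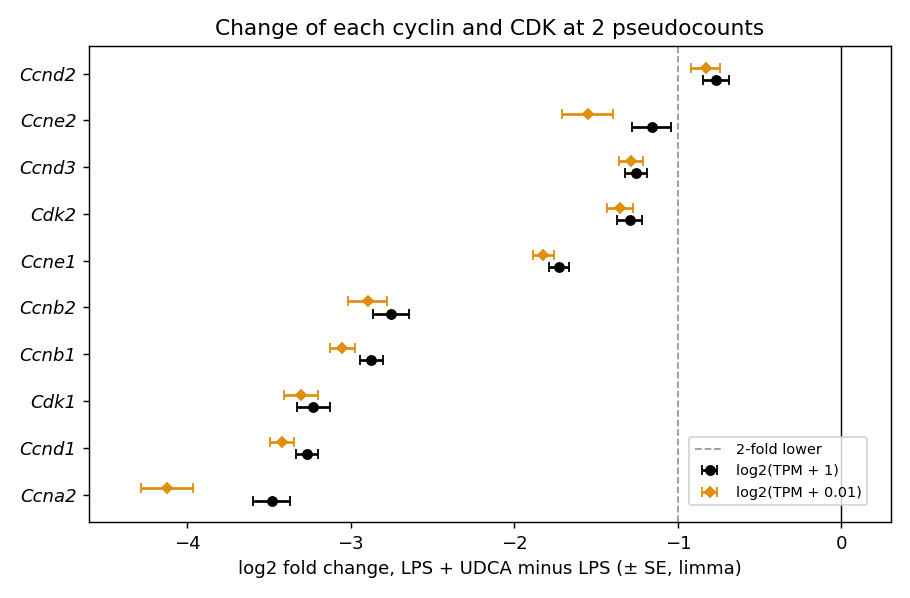
Log2 fold change (LPS + UDCA minus LPS, on log2(TPM + 1)) of each gene with its standard error from limma, in order of fold change. On log2(TPM + 1) the changes ran from −0.77 for Ccnd2 to −3.49 for Ccna2, and this order placed Ccnd1 beside Cdk1.

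Some reads of these genes could be assigned to neighbours or copies. The libraries were made with a TruSeq kit, and whether strand was used in counting is not given in the sources used here. Ccnd1 (GRCm38, chromosome 7, 144929931 to 144939925) overlaps LTO1 on the other strand, and 22.3% of the 31-base words of its transcripts also occur in another gene. LTO1 was at 14.6 ± 3.42 TPM with LPS and 19.9 ± 4.4 TPM with UDCA, the other direction from Ccnd1. Ccna2 (chromosome 3, 36564865 to 36572150) overlaps Exosc9, which shares fewer words with it, and Exosc9 went from 24.8 ± 1.68 to 37.7 ± 4.64 TPM. Ccne2 (chromosome 4, 11191351 to 11204779) overlaps Ints8, with 15.6% shared, and Ints8 went from 9.82 ± 1.81 to 18.9 ± 2.85 TPM. None of these 3 neighbours fell with its cyclin.

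Ccnb1 (chromosome 13, 100778650 to 100786570) shares 27.8% of its words with other genes, mainly Ccnb1-ps, Gm12856 and Gm8416, which are listed at 0 in all 8 libraries. Ccnd3 (chromosome 17, 47505051 to 47599691) overlaps Bysl, which went from 31.3 ± 0.404 to 21.6 ± 2.09 TPM, and shared 7.95% of its words. Ccnd2 (chromosome 6, 127125162 to 127152193) shared 6.95% and overlaps Gm43126 and 9330179D12Rik. Gm43126 went from 3.18 ± 3.35 to 1.81 ± 1.58 TPM and 9330179D12Rik from 0.41 ± 0.366 to 3.05 ± 0.627 TPM. Cers4, which has words in common with Ccnd2, was lower with UDCA, as Ccnd2 was, at 7.70 ± 1.81 TPM with LPS and 2.53 ± 0.872 TPM with UDCA. The shares were 1.15% for Cdk2 (chromosome 10, 128697939 to 128705031), 0.0753% for Ccne1 (chromosome 7, 38097984 to 38107534) and 0.0202% for Cdk1 (chromosome 10, 69335146 to 69352938). Ccnb2 (chromosome 9, 70407692 to 70421547) shared 0%. How far shared reads entered the values was not tested.

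Whether the genes fell by different amounts was tested within libraries. For each of the 45 pairs, log2(TPM + 1) of one gene minus that of the other was compared between groups by an exact two-sided permutation test, with Benjamini-Hochberg adjustment over the pairs. The difference passed for 37 pairs, each at an exact permutation p = 0.029 and adjusted p = 0.035, the smallest that the design allows. When G1 cyclins other than Ccnd1 were set against Ccna2, Ccnb1 and Ccnb2, the G1 cyclin fell less in 12 of 12 pairs, by 1.03 to 2.72 on the log2 scale. None of these 12 lost its call in any of the 12 alternative settings, each single library left out included. The planned contrast counted Ccnd1 among the G1 cyclins, and it was set apart here after its values were seen. Ccnd1 fell less in 1 of its 3 pairs, so the 12 of 12 does not describe all G1 cyclins.

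Ccnd1 did not follow the other G1 cyclins. It fell further than Ccnb1 by 0.39 ± 0.10 (SE) and further than Ccnb2 by 0.52 ± 0.17 on the log2 scale (exact permutation test, adjusted p = 0.035 for both). The difference from Ccnb2 stayed between −0.54 and −0.48 when single LPS libraries were left out, but did not pass in any of these 4 exact permutation tests, with adjusted p from 0.099 to 0.1. The difference between Ccnd1 and Ccna2 was 0.22 ± 0.11 and did not pass (exact permutation test, p = 0.14). This comparison turned on the number added before the logarithm, because with 0.01 added the difference was 0.70 and passed at adjusted p = 0.035 in the exact permutation test. It also passed without LPS + UDCA replicate 1, the library with the highest Ccna2 among the treated.

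The other 7 pairs that did not pass fell into 3 sets. Ccnd3, Ccne2 and Cdk2 fell by amounts that were not told apart, with differences of −0.10 ± 0.14 for Ccnd3 and Ccne2, 0.04 ± 0.07 for Ccnd3 and Cdk2, and 0.13 ± 0.14 for Ccne2 and Cdk2. The differences that involve Ccne2 changed sign with 0.01 added before the logarithm. They were then 0.27 for Ccnd3 and Ccne2 and −0.20 for Ccne2 and Cdk2, and neither passed. Ccnd1 and Cdk1 differed by −0.04 ± 0.11. Among the genes of mitosis, Ccnb1 and Ccnb2 differed by −0.12 ± 0.17, while the difference was 0.35 ± 0.13 for Ccnb1 minus Cdk1 and 0.48 ± 0.23 for Ccnb2 minus Cdk1, each with p = 0.057 in the exact permutation test. Both of these last pairs passed without LPS + UDCA replicate 1. The call that Ccna2 fell further than Cdk1 was lost with median-of-ratios scaling and without any 1 of 5 libraries, LPS replicate 1 and each LPS + UDCA library.

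**Figure D3:**
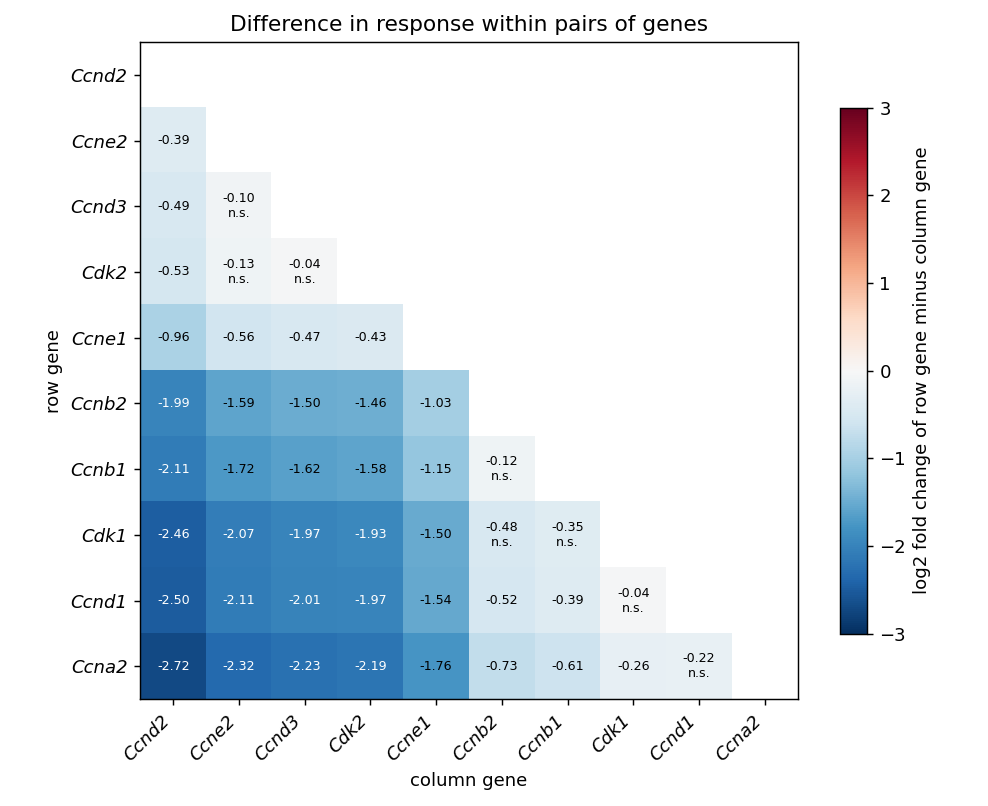
Difference in log2 fold change (row gene minus column gene, on log2(TPM + 1)) for the 45 pairs of genes, with n.s. where the adjusted p of the exact permutation test was 0.05 or more. The values that did not pass gather in 3 places, Ccnd3 with Ccne2 and Cdk2, Ccnd1 with Ccna2 and Cdk1, and the B-type cyclins with each other and with Cdk1.

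The contrast of late with early cyclins gave a score per library, the mean log2(TPM + 1) of Ccna2, Ccnb1 and Ccnb2 minus that of the 5 G1 cyclins. The score was 0.66 ± 0.058 with LPS and −0.75 ± 0.063 with UDCA (SD, n = 4), a difference of −1.40. The S and G2/M cyclins fell by 3.04 and the G1 cyclins by 1.64 on the log2 scale. Ccnd1 carried much of the G1 fall, and without it the difference in the score was −1.81. Against the D-type cyclins alone, it was −1.27. These scores are descriptions over chosen genes and carry no p-value.

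Summed over the 8 cyclins, the level went from 355 ± 13.6 to 73.7 ± 1.53 TPM. The A- and B-type cyclins supplied 40.8% ± 0.631 of that sum with LPS and 22.6% ± 1.83 with UDCA. Their own sum went from 145 ± 4.62 to 16.6 ± 1.21 TPM, and that of the E-type from 40.5 ± 2.63 to 11.7 ± 0.664 TPM. Ccnd3 alone rose from 19.2% ± 0.982 to 38.1% ± 3.17 of cyclin mRNA, although its own level fell.

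**Figure D4:**
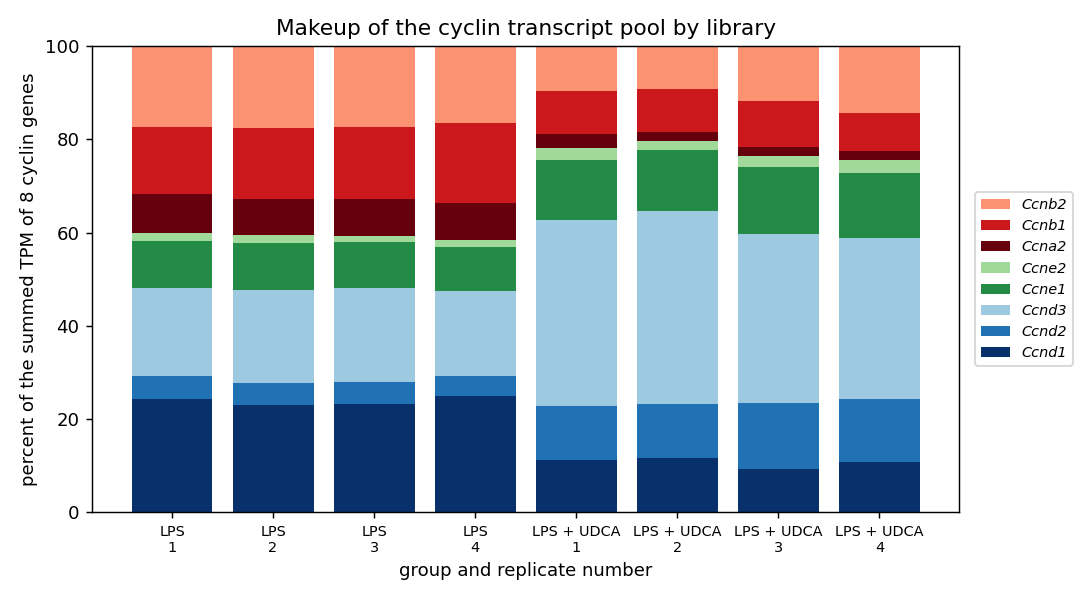
Share of the summed TPM of the 8 cyclins (percent) that each cyclin supplied in each of the 8 libraries, as stacked bars from 0 to 100%. The A- and B-type cyclins together went from 40.8% with LPS to 22.6% with UDCA on average.

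The order of the levels also changed. With LPS, Cdk1 was followed by Ccnd1, then by Ccnd3, Ccnb2 and Ccnb1, whose neighbouring ranges overlapped. Next came Cdk2 and Ccne1, which overlapped too, and then Ccna2, Ccnd2 and Ccne2, each apart from its neighbour. With UDCA, Ccnd3 came first, apart from the rest. Cdk1 and Cdk2 followed with overlapping ranges. Then came Ccne1, Ccnd2, Ccnb2, Ccnd1 and Ccnb1, a run in which the ranges of neighbours overlapped. Ccne2 and Ccna2 were last and overlapped.

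Fewer of the remaining cyclins and CDKs were called lower. Of the other cell cycle members, Ccnf, the F-box cyclin of G2, fell from 17.5 to 2.04 TPM, with a log2 fold change of −2.63. Cdk4 and Cdk6, the partners of the D-type cyclins, are named for that role after their values were seen. Cdk4 went from 301 to 215 TPM (log2 fold change −0.48) and Cdk6 from 48.4 to 64.3 TPM (log2 fold change 0.40), both at limma FDR below 0.05 and below the 2-fold threshold. Ccna1 and Ccnb3, known from the germ line, are listed at 0. None of the 3 tested genes of the CDK-activating kinase was called, and their median was 0.55. Of these 3, 2 were higher at limma FDR below 0.05 and 1 did not pass it. At that threshold 4741 of the 11796 genes tested were higher.

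Of the 40 transcriptional and other cyclins and CDKs, 33 were tested, of which 4 were called higher and 1 lower, with a median of 0.29. Over all genes tested, 8.71% were called higher and 8.44% lower. Cables2, which encodes a binding partner of CDKs, rose by 1.29. Ccny, a membrane-bound cyclin, had −1.02, a value near the threshold that was not called in 3 of 16 alternative settings, without LPS replicate 1, LPS replicate 2 or LPS + UDCA replicate 3.

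**Figure D5:**
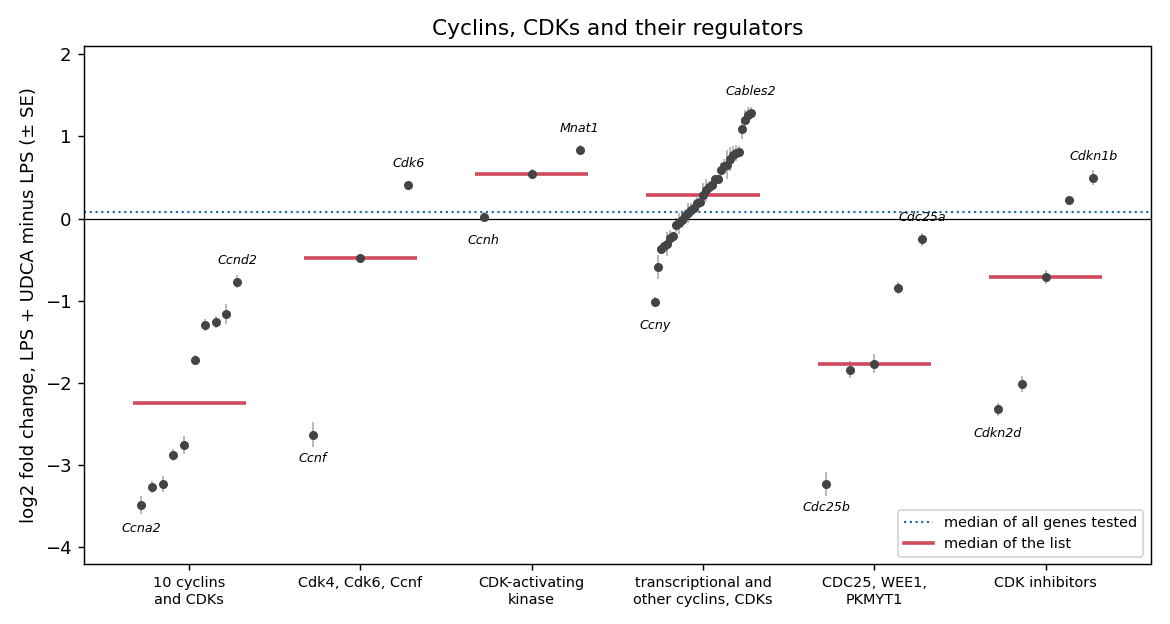
Log2 fold change (LPS + UDCA minus LPS, on log2(TPM + 1)) of each tested gene of the 10 cyclins and CDKs and of related lists, with 1 point per gene, its SE, a bar at the median of each list and a dotted line at the median of all genes tested. The 10 genes lie between −0.77 and −3.49, and the transcriptional and other cyclins and CDKs lie around a median of 0.29.

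Regulators of CDK activity were read from lists of their own. The counts of these and later lists stand beside 8.44% called lower and 8.71% called higher over all genes tested. Past limma FDR of 0.05 alone, 3807 of the 11796 genes tested were lower and 4741 higher. Of the CDC25 phosphatases, which activate CDKs, and the WEE kinases, which restrain them, 5 of 6 were tested, 5 were lower at limma FDR below 0.05 and 3 were called. Cdc25b fell furthest, by 3.23 on the log2 scale from 21.7 to 1.46 TPM, and Wee1, of the opposite activity, fell by 1.76. Wee1 is a low gene, at 4.04 TPM with LPS and 0.483 TPM with UDCA, and with 0.01 added before the logarithm its fold change was −3.06, so its fall and that of Cdc25b are not ranked here. Among 28 CDK subunits and ubiquitin ligase genes, 6 were called lower and 1 higher, while at limma FDR below 0.05 11 were lower and 12 higher, with a median of 0.013. The call of Anapc5, 1 of the 6, was lost in 3 alternative settings, quantile normalization and leaving out LPS replicate 1 or LPS + UDCA replicate 4. Cdc20, the activator through which the anaphase-promoting complex destroys B-type cyclins, fell by 3.17. Other genes hold 26.7% of the words of Cdc20. Cul1, the scaffold of the SCF ligase, rose by 1.47.

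Of 8 CDK inhibitors, 3 (Cdkn1c, Cdkn2a and Cdkn2b) are listed at 0 in every library. Of the 5 tested, 2 were called lower, Cdkn2d with −2.32, an inhibitor of CDK4 and CDK6, and Cdkn3 with −2.01, a phosphatase that acts on CDKs. Cdkn1a, which encodes p21 and is named after its values were seen, was the most abundant, at 598 TPM with LPS and 700 TPM with UDCA. Its log2 fold change was 0.23, past the limma FDR of 0.05 and far below the 2-fold threshold.

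In the lists of E2F, MuvB and NF-Y genes, more were lower than higher at limma FDR below 0.05, apart from NF-Y. Of 13 pocket protein, E2F and DP genes, 5 were called lower and 0 higher, while 9 were lower and 3 higher at limma FDR below 0.05. E2f8, a repressor of S phase genes, went from 8.97 to 0.498 TPM and had −2.73, or −4.16 with 0.01 added, and Rbl1, a pocket protein, had −1.004. The call of Rbl1 sat at the threshold and was lost in 4 of 16 alternative settings, without LPS replicate 1 or 4 and without LPS + UDCA replicate 2 or 3. Of the 7 MuvB, B-MYB and FOXM1 genes, the 2 called lower were the activators Mybl2, with −2.97, and Foxm1, with −2.41. Of the same 7, 4 were lower and 2 higher at limma FDR below 0.05. The 2 higher genes were Lin37 (0.84) and Lin52 (0.62) of the MuvB core, while Lin9 (−0.55) and Rbbp4 (−0.52) of the core were lower. These core genes are named after their values were seen. None of the 3 NF-Y genes was called, and their median was 0.47, with 2 higher and 1 lower at limma FDR below 0.05.

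Of 12 genes for mitogen inputs to cyclin D, 11 were tested, of which 5 were called lower and 0 higher, with a median of −0.66. Egr1, an immediate early factor, fell by 3.07, and Csf2ra, a chain of the GM-CSF receptor, by 1.19. Myc, named after its values were seen, had −1.27, while 4 of the 11 were higher at limma FDR below 0.05.

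Markers of proliferation fell with the cyclins. Of 9 tested, 9 were lower at limma FDR below 0.05 and 8 were called, with a median of −2.01. Rrm2, a subunit of ribonucleotide reductase, fell by 3.42, and Pcna, the sliding clamp of DNA polymerase, by 1.48. Of 8 reference genes, none was called, 5 were lower and 1 higher at limma FDR below 0.05, and the median was −0.22. Their part in the cyclin result was not tested.

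Macrophage markers were well detected and not uniform. Their summed level was between 4218 and 4454 TPM with LPS and between 2052 and 2312 TPM with UDCA. Of 9 markers, 8 were tested, 4 were called lower and 2 higher, and Mertk is listed at 0. Itgam, the integrin chain of CD11b, fell by 2.91, with 68.3% of its words found elsewhere, and Fcgr1, an Fc receptor, rose by 1.48. Markers of other cell types were low. The summed level per library was at most 0.15 TPM for fibroblasts, 0.12 TPM for epithelium, 1.41 TPM for T cells and 4.5 TPM for B cells, with Cd3e and Epcam at 0. The B cell sum was mostly Cd79b, which went from 3.58 to 0.908 TPM and had a log2 fold change of −1.29, or −2.12 with 0.01 added.

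Profiles close to those of Ccnb1 and Ccnd1 were sought among the 7072 genes with an average of 10 TPM or more. Likeness was the root mean square difference in log2(TPM + 1) over the 8 libraries, each gene taken relative to its LPS mean. The 5 nearest to Ccnb1 were Cdc6 (0.081), Ube2c (0.093), Ier3 (0.112), Fen1 (0.116) and Cdca3 (0.118). The 5 nearest to Ccnd1 were Kif22 (0.076), Il1rn (0.099), Cdca5 (0.107), Birc5 (0.12) and Tcf19 (0.126). Cdc6, Fen1, Cdca5 and Birc5 are genes of replication or mitosis, and Il1rn encodes the antagonist of the interleukin-1 receptor. Fen1 has 79.6% of its words in common with another gene. Ccnd1 ranked 45 from Ccnb1, at 0.303. Since all these genes fell by a similar amount in 2 groups, the measure mostly ranks the size of the fall.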

How the data were processed

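RNA of J774A.1 cells was sequenced (Illumina HiSeq, TruSeq kit) in 8 libraries, grouped by the sample labels into 4 LPS and 4 LPS + UDCA. The deposited table holds TPM per gene and library, made by the authors on a commercial platform. Its totals were not quite equal, at 973190 to 977485 TPM in the LPS libraries and 958918 to 962737 TPM in the LPS + UDCA libraries. Their processing notes name Bowtie 0.12.2 and GRCm38, and the counting program is not given in the sources used here. TPM keeps no depth, so errors are the spread between libraries.

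The 11796 genes averaging 1 TPM or more were fitted as log2(TPM + 1) with limma 3.58.1 in R 4.3.3 (lmFit, eBayes with trend). Genes with a Benjamini-Hochberg FDR below 0.05 and a fold change of at least 2 were called. Single genes and pairs of genes were compared by exact two-sided permutation tests over 70 arrangements. Lists were described by counts and medians. The text names the 10 genes, the highest and lowest called gene of each list and the 5 nearest profiles, and says where another gene was added. The genes and lists were chosen with earlier results of these data known.

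Positions are from GENCODE M21 (55227 of 55487 identifiers matched) and promoters from RefSeq. The procedure was tested on simulated data. Alternatives covered scaling, filter, pseudocount, thresholds, replicate block and each library left out. Tables and figures used Python 3.11.15, pandas 2.3.3 and matplotlib 3.10.9.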

Additional observations from a re-analysis of the deposited data

Results flagged for a closer look

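In 7 of 62 groups of 4 libraries, the highest or lowest library stood further from the others than Dixon's 95% limit allows, where chance alone gives about 3.1. Among the cyclins and CDKs, these were LPS + UDCA replicate 1 for Ccna2 (2.32 TPM, the highest), replicate 2 for Ccne2 (1.44 TPM, the lowest) and replicate 2 for Cdk2 (16.6 TPM, the highest). Among the other named genes, all in the LPS + UDCA group, they were replicate 3 for Cdc20 (11.6 TPM, the highest), replicate 3 for Csf2ra (16.8 TPM, the lowest), replicate 1 for E2f8 (0.36 TPM, the lowest) and replicate 2 for Fcgr1 (121 TPM, the highest). All 7 values lay on their own group's side of the gap between the groups.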

How the results depend on the processing

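The 160 values of the 10 genes under 16 alternatives each kept their direction and their side of the thresholds, and 9 genes were called in the replicate block fit as without it. The widest range was that of Ccna2, from −4.13 to −3.44. Without a fold change minimum, 3807 genes were lower and 4741 higher. The late minus early cyclin score differed by −1.56 with a pseudocount of 0.1, by −1.58 with 0.01 and by −1.27 against D-type cyclins alone, and by −1.42 to −1.37 with single libraries left out. Between 31 and 39 of the 45 pairs passed with a library left out, where fewer arrangements are possible. The pairs that lost their call in at least 1 alternative were Ccnd1 and Ccnb2, Ccnd2 with Ccnd3, Ccne2 or Cdk2, Ccne1 with Ccne2 or Cdk2, and Ccna2 with Ccnb1, Ccnb2 or Cdk1. Same-numbered libraries deviated together weakly (correlations from −0.035 to 0.146, against −0.145 to 0.162 for different numbers), so the numbers were not taken as pairs. The replicate block gave 1000 genes lower and 1034 higher. Unknown depth limits what can be said of Ccna2 and Ccne2 with UDCA.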
